A study of Homo sapiens with 4 samples.

Results

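Lysosomal genes are described here in HEK293 cells grown in high and in low glucose. The genes are 47 hydrolases, lysosomal membrane proteins, subunits of the vacuolar proton pump and transcription factors of the TFEB family. They were taken by gene symbol from a list, with no threshold on a measured value, and a gene counted as measured when at least 1 probe set named it alone. Of the 47 genes, 45 met this rule, out of 19775 genes with such a probe set on the array. They comprised 21 of 22 hydrolases and activators, 7 of 7 membrane proteins, 14 of 15 genes of the proton pump and 3 of 3 TFEB-family factors. GLB1 and ATP6V1F had only probe sets that name several genes and were not analysed here.

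HEK293 is an established human embryonic kidney line, transformed with adenovirus DNA. Cells of the high glucose group spent 7 days in DMEM with 450 mg/dl glucose, and those of the low glucose group spent 7 days in DMEM with 100 mg/dl glucose, both with fetal calf serum. Total RNA of 2 cultures per group was measured on 4 single-colour Affymetrix arrays, so that transcript levels can be set side by side between the glucose concentrations. The labels call the arrays biological replicates and do not say how the cultures were kept apart, so p-values measure the spread between these samples.

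Lysosomes are acidic organelles in which hydrolases break down proteins, glycans, lipids and glycogen delivered by endocytosis and autophagy. Their lumen is acidified by the V-ATPase, a rotary pump whose V1 sector hydrolyses ATP in the cytosol and whose V0 sector carries protons through the membrane. TFEB, TFE3 and MITF are basic helix-loop-helix factors that bind an E-box in the promoters of many lysosomal genes. When nutrients are plentiful the kinase mTORC1 phosphorylates TFEB and TFE3 and holds them in the cytoplasm.

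The deposited signal intensities are linear and were already scaled to a trimmed mean of 200.02 on each array, with array medians between 33.3 and 38.7. Differences are given as log2 of high over low glucose, with the standard error of the limma fit, and a gene was called when its adjusted p was under 0.05. Of 12242 genes tested, 57.6% were called, 24.3% as higher and 33.3% as lower in high glucose, and the median log2 difference was -0.10. Median centring of the arrays moved that median to 0.07. Of all calls, 58.8% were then higher in high glucose, against 42.1% with the deposited scaling, and differences smaller than that shift can change sign with the scaling. The 24 probe sets of bacterial poly-A transcripts added to the RNA were higher on both high glucose arrays, by a median of 3.84-fold, more than any lysosomal gene rose. The part of this control difference in the results below was not tested.

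Lysosomal genes were mostly lower in high glucose. Of the 45 measured genes, 25 were lower (55.6%, against 33.3% of all genes tested), 10 were higher (22.2%, against 24.3%) and 10 did not pass. The members' median log2 difference was -0.20, with a range of -1.72 to 1.21. Differences of at least 1.5-fold were found in 12 lower and 3 higher genes, where 19.3% and 10.8% of all genes met that rule. The arrays of the groups did not overlap for 42 of the 45 genes, and for 79.8% of all genes. After median centring, 18 of the 45 were lower (40%, against 23.2% of all genes) and 13 higher (28.9%, against 33.1%), with a median of -0.03, against 0.07 for all genes. In bulk RNA, less transcript per cell and fewer cells carrying it cannot be told apart.

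**Figure D1:**
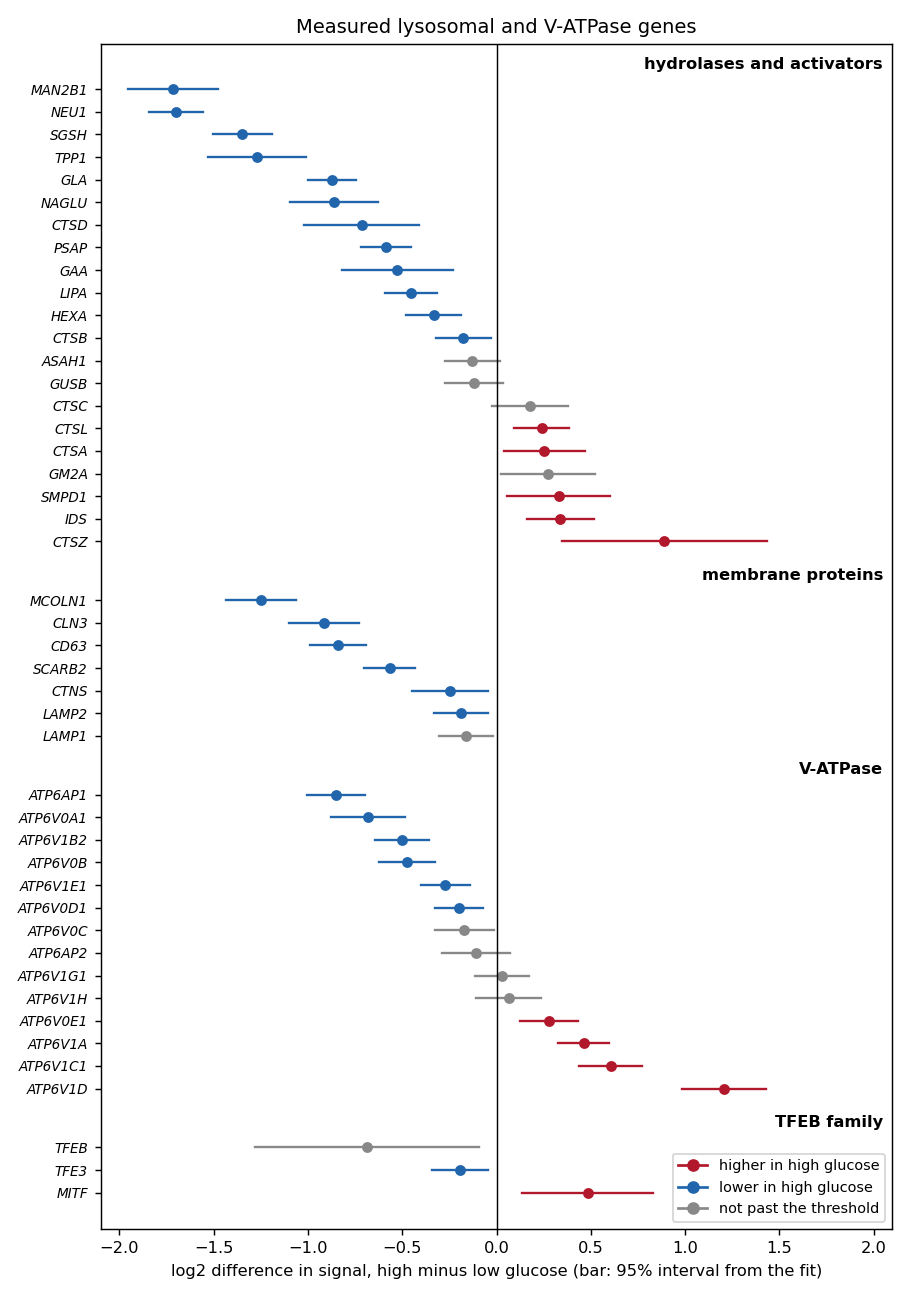
Log2 difference in signal, high minus low glucose, for the 45 measured genes by class, with the 95% interval from the limma fit (2 arrays per group). Differences run from -1.72 for MAN2B1 to 1.21 for ATP6V1D, and all 7 membrane proteins lie below 0 with the deposited scaling, LAMP1 at 0.01 after median centring.

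Among hydrolases and their activators 12 of 21 fell (57.1%, against 33.3% of all genes) and 5 rose (23.8%, against 24.3%) in high glucose. Their median was -0.33. The largest falls were in enzymes that trim glycans. MAN2B1, the lysosomal alpha-mannosidase, had signals of 286.3 and 352.9 in high glucose, against 1030 and 1057 in low glucose. NEU1, the lysosomal sialidase, had 588 and 579 in high glucose, against 1961 and 1828 in low glucose. Both genes stood more than 3-fold apart with no overlap of the arrays: MAN2B1 fell 3.28-fold (log2 difference -1.72 ± 0.10 SE, adjusted p = 1.3e-05) and NEU1 3.25-fold (-1.70 ± 0.06, adjusted p = 1.7e-06).

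Enzymes of heparan sulfate breakdown did not move together. SGSH, the sulfatase that acts on N-sulfated glucosamine, had 430.1 and 462 in high glucose, against 1120 and 1151 in low glucose, a fall of 2.54-fold (-1.35 ± 0.07, adjusted p = 6.8e-06). NAGLU, which removes N-acetylglucosamine, had 201 and 216 in high glucose, against 394 and 364 in low glucose, a fall of 1.82-fold (adjusted p = 0.00026). IDS, iduronate-2-sulfatase of the same pathway, rose, with 891 and 909 in high glucose, against 758 and 667 in low glucose (0.34 ± 0.08, adjusted p = 0.0063). GUSB, beta-glucuronidase, had 1059 and 1166 in high glucose, against 1185 and 1229 in low glucose, and did not pass (-0.12, 95% interval -0.27 to 0.04).

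Proteases were split as well. TPP1, which cuts tripeptides from protein ends, had 990.2 and 764 in high glucose, against 2086 and 2111 in low glucose, a fall of 2.41-fold (-1.27 ± 0.11, adjusted p = 6.6e-05). CTSD, the aspartic protease cathepsin D, had 365 and 409 in high glucose, against 553 and 727 in low glucose, a fall of 1.64-fold (adjusted p = 0.0025). The low glucose arrays of CTSD lay well apart from each other, but both stayed above the high glucose arrays. Of the cysteine cathepsins, CTSB fell by 0.18 log2 units, while CTSZ, a carboxypeptidase, rose 1.85-fold with 244 and 206 in high glucose, against 94.3 and 154.6 in low glucose (adjusted p = 0.013). CTSL, an endopeptidase, rose by a log2 difference of 0.24, and CTSC, a dipeptidyl peptidase that activates serine proteases, stood at 0.18 without passing. CTSA, the serine carboxypeptidase that protects NEU1 in a complex, rose with a log2 difference of 0.25, opposite to NEU1.

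Among lipid and glycogen enzymes and their activators 5 fell, SMPD1 rose and GM2A and ASAH1 did not pass. GLA, alpha-galactosidase A, had 811 and 796 in high glucose, against 1467 and 1477 in low glucose, a fall of 1.83-fold (-0.87 ± 0.05, adjusted p = 1.7e-05). PSAP, the precursor of the saposins that present sphingolipids to their hydrolases, fell by 0.58 log2 units, LIPA, the acid lipase, by 0.45, HEXA, the alpha subunit of beta-hexosaminidase, by 0.33 and GAA, the acid glucosidase that digests glycogen, by 0.53. SMPD1, acid sphingomyelinase, rose with a difference of 0.33. GM2A, the activator that serves HEXA, stood at 0.27 and ASAH1, acid ceramidase, at -0.13, and neither passed (adjusted p = 0.061 and 0.11).

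Calls of 6 of the 17 called hydrolases depended on single arrays, while those of IDS, HEXA and the others did not. CTSB lost its call when any 1 of the 4 arrays was left out (adjusted p from 0.079 to 0.18). CTSA was not called when high glucose replicate 1 (adjusted p = 0.11), high glucose replicate 2 (0.16) or low glucose replicate 1 (0.11 log2 units, adjusted p = 0.24) was left out, and SMPD1 without the same 3 arrays (0.078, 0.17 and 0.16). CTSZ was not called without high glucose replicate 1 (0.077), CTSL without high glucose replicate 2 (0.081) and GAA without low glucose replicate 1 (0.052). Conversely CTSC was called without low glucose replicate 2 (adjusted p = 0.031) and GM2A without low glucose replicate 1 (0.019). Median centring ended the calls of CTSB (-0.01) and HEXA (-0.16) and called CTSC (0.35) and GM2A (0.44) as higher.

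**Figure D2:**
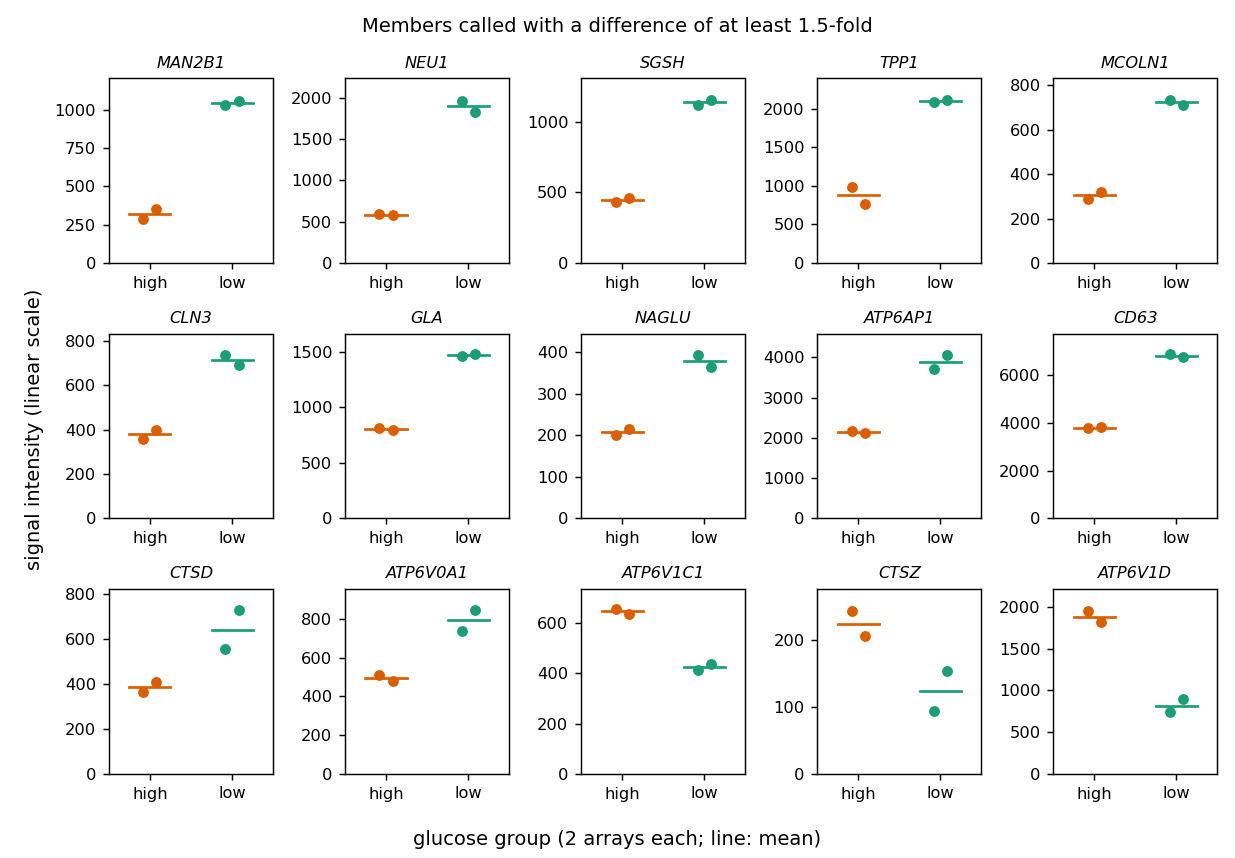
Signal intensity on a linear scale in each of the 2 high glucose and 2 low glucose arrays, with group means as lines, for the 15 genes called with a difference of at least 1.5-fold. The groups do not overlap in any panel, and the low glucose arrays of CTSZ, at 94.3 and 154.6, lie far apart for their level.

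Lysosomal membrane proteins had no member that rose: 6 of 7 fell (85.7%, against 33.3% of all genes), with a median of -0.57. MCOLN1, the calcium channel mucolipin 1 that acts upstream of TFEB activation through calcineurin, had 289.9 and 319.9 in high glucose, against 733 and 713 in low glucose. This was the largest difference of the class, a fall of 2.38-fold (-1.25 ± 0.08, adjusted p = 1.7e-05). CLN3, a membrane protein mutated in juvenile Batten disease, had 359.9 and 397 in high glucose, against 737 and 689 in low glucose, a fall of 1.89-fold (adjusted p = 6.8e-05). CD63, a tetraspanin of lysosomes and late endosomes, had 3780 and 3832 in high glucose, against 6877 and 6755 in low glucose, a fall of 1.79-fold (adjusted p = 3.4e-05).

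SCARB2, the receptor that carries glucocerebrosidase to lysosomes, had 1379 and 1308 in high glucose, against 2012 and 1967 in low glucose, and fell by 0.57 log2 units (adjusted p = 0.00013). In their brightest probe sets the major glycoproteins of the lysosomal membrane differed by less than 0.20 log2 units. LAMP1 had 3667 and 3836 in high glucose, against 4193 and 4210 in low glucose, and did not pass (-0.16, 95% interval -0.31 to -0.02, adjusted p = 0.052). LAMP2 fell by 0.19 and CTNS, the cystine exporter, by 0.25 log2 units. After median centring LAMP1 stood at 0.01, and LAMP2 (-0.02) and CTNS (-0.08) were no longer called. LAMP1 was called without high glucose replicate 2 (adjusted p = 0.037). LAMP2 was not called without high glucose replicate 2 (0.17), low glucose replicate 1 (0.088) or low glucose replicate 2 (0.083), and CTNS missed the threshold whichever of the 4 arrays was left out (0.051 to 0.19).

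V-ATPase genes went both ways, at shares near those over all genes. Of 14, 6 were lower (42.9%, against 33.3% of all genes), 4 were higher (28.6%, against 24.3%) and 4 did not pass. Their median was -0.14, against -0.10 for all genes. In the V1 sector 3 of 7 measured subunits rose (42.9%) and 2 fell (28.6%). ATP6V1D, a subunit of the central rotor stalk, had 1950 and 1818 in high glucose, against 738 and 901 in low glucose. Its rise of 2.31-fold (1.21 ± 0.10, adjusted p = 4.3e-05) was the largest among the 45 genes read from their brightest probe set. That probe set ends in _x_at; a second one, with 1115 and 1195 in high glucose, against 727 and 729.8 in low glucose, stood at 0.66, another, dim, at -0.19 and the mean of the 3 at 0.56 (adjusted p = 0.0024), below MITF (0.72) and SMPD1 (0.69) read the same way. ATP6V1C1, a peripheral stalk subunit, had 655 and 638 in high glucose, against 412 and 438 in low glucose, and rose 1.52-fold (adjusted p = 0.00028).

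The subunits that form the catalytic head of V1 differed in direction. ATP6V1A, which holds the catalytic sites, had 1422 and 1346 in high glucose, against 1009 and 999.2 in low glucose, a rise of 0.46 ± 0.06 log2 units (adjusted p = 0.00038). Its partner ATP6V1B2 had 1444 and 1327 in high glucose, against 1960 and 1962 in low glucose, a fall of 0.50 ± 0.06 log2 units (adjusted p = 0.00035). Neither gene's groups overlapped. A second ATP6V1A probe set stood at 0.17 and was not called in the fit over all probe sets (adjusted p = 0.094). The mean of the ATP6V1A probe sets rose by 0.32 (adjusted p = 0.0039), and ATP6V1B2 has a single probe set. ATP6V1E1, of the peripheral stalk, fell by 0.27 log2 units, while ATP6V1G1 (0.03, 95% interval -0.11 to 0.17) and ATP6V1H, a regulatory subunit of V1 (0.06, -0.11 to 0.23), had overlapping groups and did not pass.

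In the membrane-bound V0 sector 3 of 5 subunits fell (60%, against 33.3% of all genes) and 1 rose (20%, against 24.3%). ATP6V0A1, an isoform of the largest V0 subunit, had 511 and 477 in high glucose, against 739 and 847 in low glucose, and fell 1.60-fold (-0.68 ± 0.08, adjusted p = 0.00036). ATP6V0B, a proteolipid of the proton-carrying ring, had 2258 and 2296 in high glucose, against 3027 and 3296 in low glucose, and fell by 0.47 log2 units. Its ring partner ATP6V0C had 4018 and 4307 in high glucose, against 4635 and 4726 in low glucose, and did not pass (-0.17, adjusted p = 0.059). ATP6V0D1, which connects the ring to the rotor stalk, fell by 0.20 log2 units, and ATP6V0E1, a small membrane subunit, rose with a difference of 0.28.

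Of the accessory proteins, ATP6AP1, an assembly factor of the pump, had 2180 and 2134 in high glucose, against 3717 and 4073 in low glucose, and fell 1.80-fold (-0.85 ± 0.07, adjusted p = 3.8e-05). ATP6AP2, the prorenin receptor, did not pass (-0.11, 95% interval -0.29 to 0.07). ATP6V0D1 was not called when high glucose replicate 2 (adjusted p = 0.073) or low glucose replicate 1 (0.064) was left out, nor after median centring (-0.03, adjusted p = 0.77). ATP6V0C was called without high glucose replicate 2 (adjusted p = 0.025), and median centring ended the call of ATP6V1E1 (-0.10) and called ATP6V1H as higher (0.23). Whether the sectors differ from each other was not tested.

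**Figure D3:**
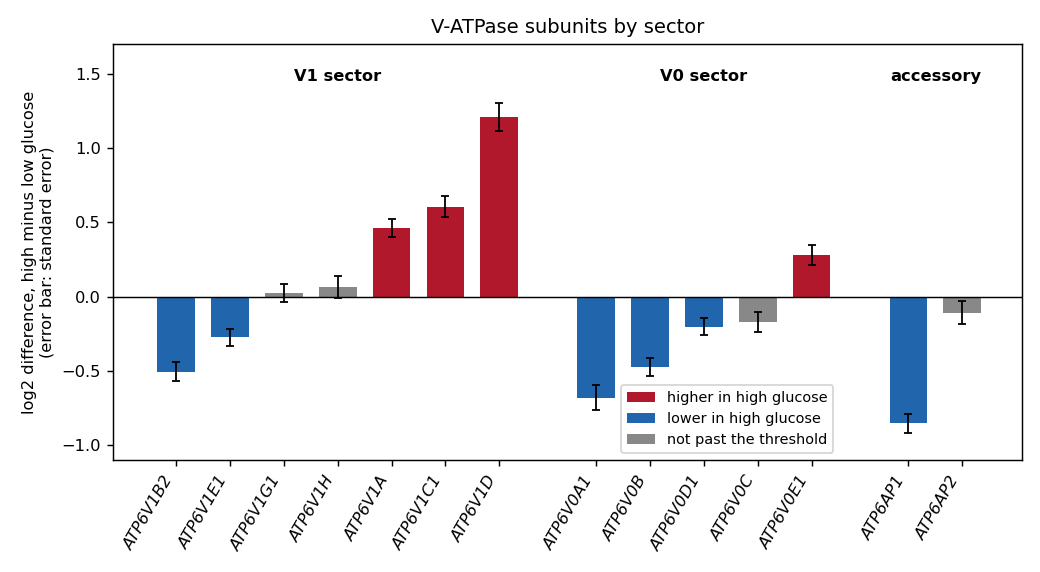
Log2 difference, high minus low glucose, of 14 V-ATPase genes by sector, with standard errors from the limma fit (2 arrays per group). ATP6V1A, ATP6V1C1 and ATP6V1D rose while ATP6V1B2 and ATP6V1E1 of the same sector fell, and ATP6V0E1 was the only V0 subunit that rose.

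The TFEB-family factors did not share a direction, with 1 higher, 1 lower and 1 not passing. TFEB gave low signals, 39.8 and 49.0 in high glucose, against 66.2 and 76.2 in low glucose. Its groups did not overlap, yet the difference just missed the threshold (-0.69 ± 0.25, adjusted p = 0.051). TFE3, its ubiquitous paralog, had 686 and 715 in high glucose, against 819 and 780.1 in low glucose, and fell by 0.19 log2 units (adjusted p = 0.033). MITF, best known from melanocytes, had 222 and 194 in high glucose, against 162.6 and 135 in low glucose, and rose with a difference of 0.48 ± 0.15 (adjusted p = 0.025).

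Calls of these factors depended on single arrays and settings. TFE3 was not called without high glucose replicate 1 (adjusted p = 0.15), high glucose replicate 2 (0.066) or low glucose replicate 1 (0.13), and stood at -0.02 after median centring. MITF was not called without high glucose replicate 1 (adjusted p = 0.13) or low glucose replicate 2 (0.11). TFEB was called lower with a pseudocount of 16 (-0.53, adjusted p = 0.046) and without the intensity trend of the fit (0.023). Further probe sets of TFE3 (-0.57) and MITF (0.95) were called in the direction of the brightest. A second TFEB probe set ranked below the brightest in mean log2 signal over the 4 arrays only through its low reading in high glucose replicate 1. Both of its high glucose arrays lay below both low glucose arrays. It read 9.48 and 49.2 in high glucose, against 112.3 and 112.1 in low glucose. It was called lower (-2.38 ± 0.67, adjusted p = 0.022 in a fit over all probe sets), with its high glucose arrays far apart. Its high glucose mean lay under the filter level, so it passed only through low glucose and had to differ. Signals near 32.9, the filter level, are not shown to be above background. Transcript levels say nothing of the phosphorylation or location of these factors.

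The E-box of these factors was searched in RefSeq promoter windows of GRCh38.p14, from 250 bases before to 50 after each gene's start. The motifs were CACGTG, the longer TCACGTGA, and the CLEAR palindrome, which adds G before and C after the longer motif. Each is nested in the next and reads the same on both strands. Windows were given for 35 of the 47 genes. CACGTG was found in 11 of these 35 (31.4%), against 7.43% of all 27305 windows and 10.4% of 10005 windows of measured genes. TCACGTGA was found in 7 (20%, against 1.04% of all windows and 2.02% of those of measured genes). The CLEAR palindrome was found in 3 (8.57%, against 0.381% and 0.82%). By class CACGTG lay in 4 of 6 membrane protein windows, 4 of 16 hydrolase windows, 3 of 10 V-ATPase windows and 0 of 3 TFEB-family windows.

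The promoter stretches below are shown because genes with the same letters differed in direction. All lie before the start site, and capitals mark each CACGTG. MCOLN1 and GAA fell and hold the CLEAR palindrome, and NEU1 had the largest fall among members with CACGTG. LAMP1 holds the most copies, 6, of which 4 are in the stretch shown, and did not pass. ATP6V1G1 holds the CLEAR palindrome and did not pass, and CTSA rose.
MCOLN1 (chr19:7522563-7522623, plus strand): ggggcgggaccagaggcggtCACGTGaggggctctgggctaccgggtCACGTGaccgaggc
GAA (chr17:80101485-80101575, plus strand): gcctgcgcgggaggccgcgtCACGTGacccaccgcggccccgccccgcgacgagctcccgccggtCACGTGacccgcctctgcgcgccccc
NEU1 (chr6:31862922-31862967, minus strand): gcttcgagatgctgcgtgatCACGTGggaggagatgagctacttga
LAMP1 (chr13:113297027-113297122, plus strand): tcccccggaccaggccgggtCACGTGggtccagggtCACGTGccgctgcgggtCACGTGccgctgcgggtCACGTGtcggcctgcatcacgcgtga
ATP6V1G1 (chr9:114587691-114587736, plus strand): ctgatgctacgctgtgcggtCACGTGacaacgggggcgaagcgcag
CTSA (chr20:45891273-45891334, plus strand): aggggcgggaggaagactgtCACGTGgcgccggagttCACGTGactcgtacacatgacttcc

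Set beside the calls, CACGTG lay in 8 of 18 windows of members that fell, 1 of 7 of members that rose and 2 of 8 of members that did not pass. The 8 were ATP6V0B, ATP6V0D1, CD63, CLN3, CTSD, GAA, MCOLN1 and NEU1. MAN2B1, SGSH and TPP1, with large falls, are not among them: MAN2B1 and TPP1 have no match in their windows, and SGSH had no window in the table. Over all measured genes with a window, the shares called lay close together with and without the motif. Of 1040 genes with CACGTG 33.5% were called lower and 26.8% higher, against 32.9% and 25% of 8965 genes without it, and of 82 genes with the CLEAR palindrome 31.7% were lower and 18.3% higher. A match is a run of letters and not a shown binding site.

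Probe sets of the same gene were not called in opposite directions, but they did not all point the same way. The 45 genes had 124 single-gene probe sets, of which 105 passed the signal filter and were fitted together with all 27307 such probe sets. In that fit 45 of the 105 were lower and 20 higher in high glucose, where 27.2% and 23.1% of all probe sets were called lower and higher. The 45 include the second TFEB probe set, which passed the filter only through low glucose. Of 28 genes with more than 1 probe set past the filter, 0 had probe sets called in opposite directions and 6 had all of them called the same way. A further 19 had some called one way and others not called, and 3 had none called. Values lay on both sides of 0 for LAMP2, CTSB, CTSZ, HEXA, IDS, TPP1, ASAH1, GM2A, ATP6V0E1, ATP6V1C1 and ATP6V1D. The matching counts over all genes were not taken, so whether members differ from other genes here was not tested.

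Sizes differed between probe sets of a gene, also where the directions matched. LAMP2 had probe sets at -1.14 ± 0.08, -0.50 ± 0.07 and -0.19 ± 0.06, all called lower, and another at 0.11 ± 0.09 that did not pass. In the first of these the signals were 803 and 826 in high glucose, against 1675 and 1916 in low glucose, so that the LAMP2 value read from the brightest probe set is the smallest of the falls. CTSC did not pass in its brightest probe set but rose in 2 others, at 1.00 ± 0.06 and 0.64 ± 0.13. CTSB fell in 3 of its 5 probe sets, by 0.41, 0.65 and 0.72 log2 units, with the brightest at -0.18 and not called in this fit (adjusted p = 0.052).

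IDS rose in 4 of its 7 fitted probe sets, by differences between 0.34 and 1.05, and SMPD1 in both of its fitted ones, at 0.33 and 1.05. SGSH (-1.35 and -1.16), PSAP (-0.58 and -0.77) and CTNS (-0.25 and -0.67) fell in both of theirs, and CLN3 in both of its own, 1.89-fold and 1.99-fold. ATP6V0C, which did not pass in its brightest probe set, fell in the other (-0.30). TPP1 fell in 3 probe sets (-1.27, -0.91 and -0.75), and its only probe set not ending in _s_at stood at 0.19 and did not pass. ASAH1 fell in 2 dimmer probe sets (-0.51 and -0.52) and LAMP1 in 1 (-0.66), while their brightest did not pass. CTSZ rests on 1 probe set, since the other stood at -0.41 near the filter level, and ATP6V0E1 rose in 2 of 5 (0.28 and 0.93) with the others between -0.15 and 0.11. Among genes with a single probe set were NEU1, MAN2B1, MCOLN1, CD63, GLA, CTSD and ATP6AP1, so several of the largest falls rest on 1 reading of the gene. With the mean of a gene's probe sets in place of the brightest, LAMP1 (-0.71, adjusted p = 0.015), ASAH1 (-0.26, 0.015), ATP6V0C (-0.23, 0.0097) and TFEB (-1.53, 0.022) were called lower and CTSC higher (0.54, 0.0029). The LAMP1 mean includes a dim probe set at -1.87, and the TFEB mean the one at -2.38. Both of these probe sets passed the filter only through low glucose and had to differ, so the filter enters the calls of LAMP1 and TFEB. By the same mean CTSZ (0.24, 0.30), CTSA (0.25, 0.058), HEXA (-0.27, 0.072), TFE3 (-0.27, 0.052) and ATP6V0E1 (0.23, 0.052) were not called.

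**Figure D4:**
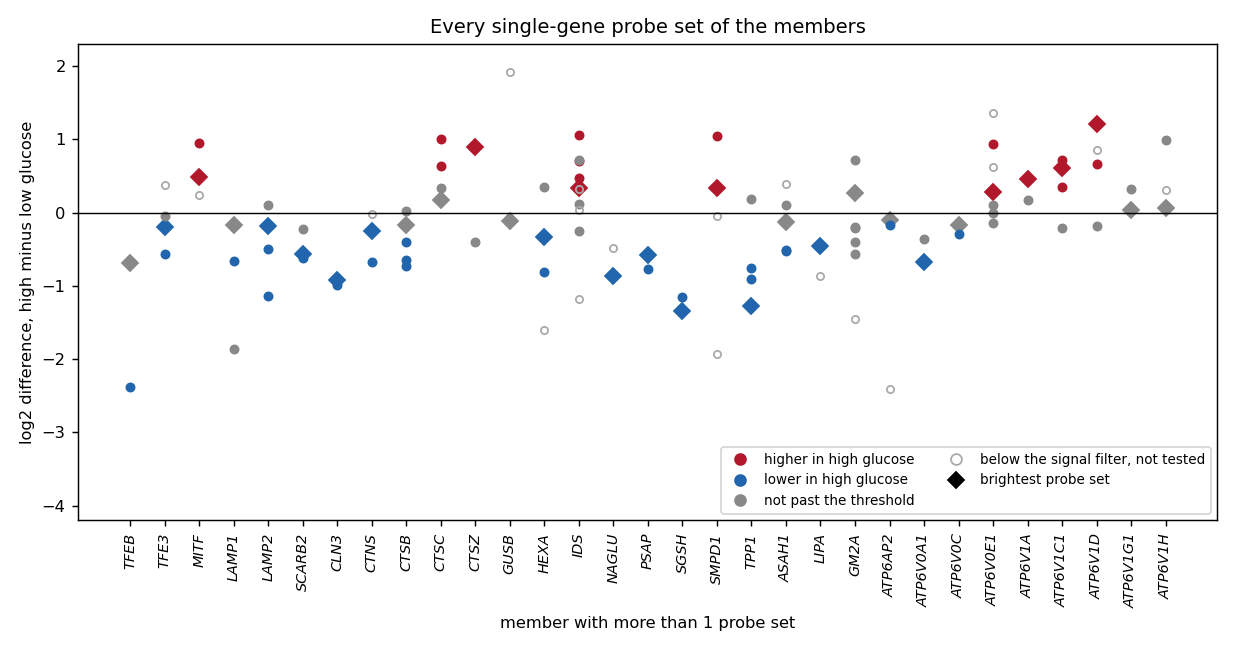
Log2 difference, high minus low glucose, of every single-gene probe set of the 31 members with more than 1, from a fit over all 27307 probe sets past the signal filter; diamonds mark the brightest probe set and open circles those below the filter. No member has a probe set called higher and another called lower, and the spread within LAMP2, CTSC and IDS is wide.

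A list of 116 further genes of the pathway, written from textbook knowledge, had 91 members measured. Of these 45 were lower (49.5%, against 33.3% of all genes) and 9 higher (9.89%, against 24.3%), with a median of -0.33. Other membrane proteins fell in 20 of 31 and rose in 1 (median -0.46). LAMP3, an inducible relative of LAMP1, had 149 and 117 in high glucose, against 611 and 621 in low glucose (-2.23, adjusted p = 1.2e-05). The channel MCOLN3 (-1.47) fell like MCOLN1, while MCOLN2 stood at -0.03 and did not pass. LAPTM5, at 18.2 and 25.5 in high glucose, against 56.2 and 69.5 in low glucose, is counted among the 20 but passed the filter only through low glucose, so it had to differ. GPR137B fell by 1.20 log2 units. TPCN2, a two-pore channel, was the member of that list that rose (0.63).

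The list of other hydrolases, which also holds the carrier NPC2, had 29 genes measured. Of these 12 fell (41.4%, against 33.3% of all genes) and 3 rose (10.3%, against 24.3%), with a median of -0.15. IDUA, the iduronidase of heparan and dermatan sulfate breakdown, had 52.6 and 61.1 in high glucose, against 214 and 196 in low glucose (-1.85, adjusted p = 9.7e-05). NPC2, the soluble cholesterol carrier, had 1102 and 1081 in high glucose, against 3508 and 3612 in low glucose (-1.71), and its membrane partner NPC1 fell by 0.66 log2 units. ARSA, arylsulfatase A, and CTSO fell by 1.17 and 1.07 log2 units. HPSE, heparanase, rose with a difference of 1.07, PPT1, a palmitoyl thioesterase, with 0.51 and PLBD2 with 0.50.

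Genes that tag and sort lysosomal enzymes were split, with 5 of 11 lower (45.5%, against 33.3% of all genes) and 3 higher (27.3%, against 24.3%). Their median was -0.03. GNPTG, the gamma subunit of the enzyme that starts the mannose 6-phosphate tag, had 297 and 299.8 in high glucose, against 781 and 831 in low glucose (-1.43, adjusted p = 7.3e-06). GNPTAB, which encodes the other subunits of the same enzyme, rose with a difference of 0.44, as did NAGPA, which uncovers the tag, with 0.51 and CLN6 with 0.47. The mannose 6-phosphate receptors IGF2R and M6PR fell by 0.66 and 0.33 log2 units and the adaptor GGA1 by 0.80. Other V-ATPase genes had 3 of 9 lower (33.3%, the same share as all genes) and 1 higher (11.1%, against 24.3%), with a median of 0.03. ATP6V0A2 and TCIRG1 stood at -0.37 each and WDR7 at 0.46. The 3 lower genes include ATP6V1B1, which passed the filter only through low glucose. It had 28.3 and 21.1 in high glucose, against 67.9 and 43.1 in low glucose, so it had to differ.

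In the list of genes that control TFEB-family factors 5 of 11 fell (45.5%, against 33.3% of all genes) and 1 rose (9.09%, against 24.3%). Their median was -0.39. RRAGD, a Rag GTPase that helps mTORC1 act on TFEB, had 319 and 296 in high glucose, against 721 and 727 in low glucose (-1.24, adjusted p = 1.5e-05), and its relative RRAGC had 967 and 968 in high glucose, against 1846 and 1884 in low glucose (-0.95). Their dimer partners RRAGA (0.05) and RRAGB (-0.29) did not pass. FNIP1, a partner of folliculin, fell by 1.06 and FNIP2 by 0.49 log2 units. PPP3CA, a catalytic subunit of calcineurin, rose with a difference of 0.50, while PPP3CB, the other one in the list, fell by 0.39 log2 units.

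**Figure D5:**
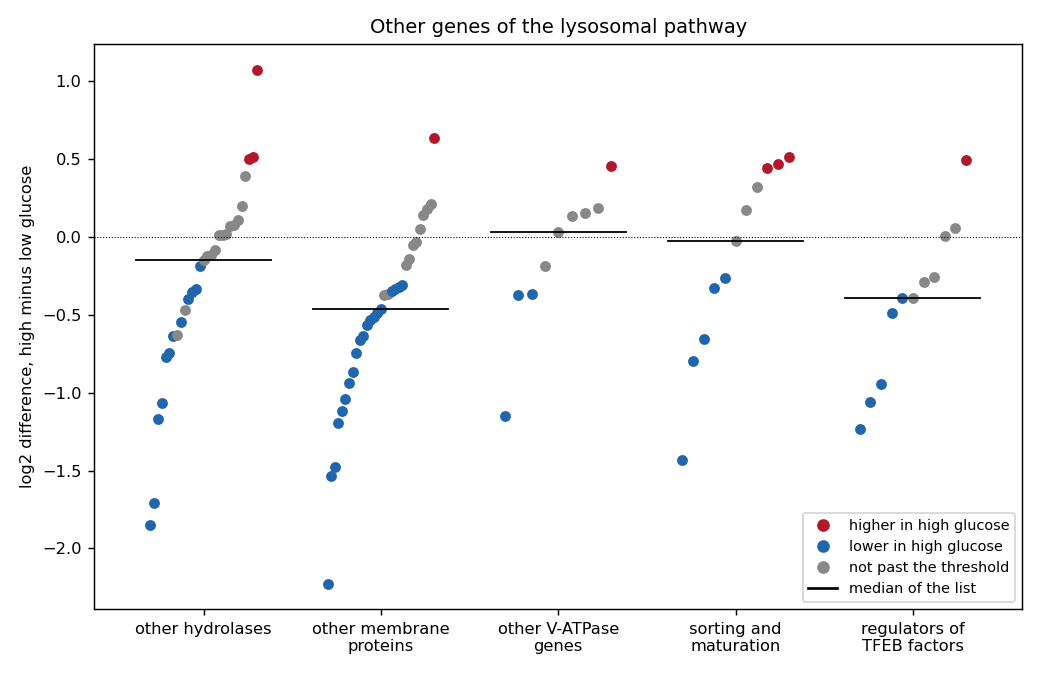
Log2 difference, high minus low glucose, of 91 further genes of the lysosomal pathway in 5 lists, with the median of each list as a line (2 arrays per group). The lowest point is LAMP3 at -2.23 and the highest HPSE at 1.07.

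Macrophages and other leukocytes are rich in lysosomal transcripts, so their markers were read on the same arrays. Of PTPRC, CD14, CSF1R, TYROBP, AIF1 and LYZ, 0 of 6 passed the signal filter, and their summed signals were 63.3 and 32.4 in high glucose, against 91 and 41 in low glucose. Of 8 genes known from HEK293 cells 6 passed the filter, and INA and NEFM did not. Their levels differed in both directions: KRT18 had 8315 and 9775 in high glucose, against 4293 and 4309 in low glucose, KRT8 5545 and 6493 in high glucose, against 2845 and 2897 in low glucose, and VIM 5567 and 5971 in high glucose, against 10580 and 11040 in low glucose. NEFL had 1354 and 1179 in high glucose, against 1442 and 1352 in low glucose, and PAX2 35.7 and 34.6 in high glucose, against 37.6 and 54.6 in low glucose. LHX1, with 67.3 and 75.1 in high glucose, against 32.5 and 20.9 in low glucose, passed the filter only through high glucose, so it had to differ. The part of these HEK293 gene differences in the results was not tested. Of 5 fibroblast markers COL1A1 and COL3A1 passed, with sums over the list of 534 and 524 in high glucose, against 328 and 378 in low glucose, while DCN, LUM and PDGFRB did not. Of 3 endothelial markers PECAM1 passed, with sums between 59.1 and 81.5. The part of the fibroblast-listed collagens in the results was not tested.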

How the data were processed

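Values are signal intensities per probe set, on a linear scale, as deposited by the authors. Per the submitters' processing notes they were made with GCOS (Affymetrix array software; version not given in the sources used here), from cRNA carrying biotin, per the labels' protocols. Of 54675 probe sets, 62 controls were left out. GEO's platform annotation names 1 gene for 41097 and several for 1801, and 41043 of the single-gene ones were matched in RefSeq by gene identifier.

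Signals were log2-transformed. Probe sets with a mean at or above the median (signal 32.9) were kept, and each gene was read from its brightest kept probe set, which gave 12242 genes. The groups were tested in limma 3.58.1 under R 4.3.3 (lmFit, eBayes with intensity trend, Benjamini-Hochberg adjustment over all genes, two-sided), after a check of the fit on simulated data. Members and lists were chosen with earlier results of these data known. Values per array are given for members called at 1.5-fold or more, the TFEB family and the 3 smallest p per class, and from other lists for up to 4 genes per direction; further members are given by value or difference. MCOLN2, NPC1, RRAGA, RRAGB and PPP3CB were named after their values had been seen. Alternatives covered normalization, filter, pseudocount (16), probe set choice, trend, replicate block and each array left out. The number of arrays limits the precision.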

Additional observations from a re-analysis of the deposited data

How the results depend on the processing

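Of the 35 members called, 20 kept their direction and call under each of the 14 alternatives in which they could be read. These were 16 of the 25 lower and 4 of the 10 higher members. The count of higher members was 10 (22.2%, against 24.3% of all genes). It became 5 without _x_at and _s_at probe sets, where 33 members were measured (15.2%, against 22.6% of all genes). With no intensity trend it became 6 (13.3%, against 21%). With 1 array left out in turn, the members' median log2 difference lay between -0.23 and -0.21, against -0.11 to -0.09 for all genes. Without _x_at and _s_at probe sets TPP1 turned to 0.19 and ATP6V0E1 to -0.15, read from other, dimmer probe sets, and neither passed there. Median centring gave 13 higher (28.9%, against 33.1% of all genes) and 18 lower members (40%, against 23.2%). Over all members and alternatives, 61 readings lost a call, 28 gained one, 2 of called members changed sign and 526 kept their call or stayed uncalled. The 526 include uncalled readings that changed sign, such as GM2A with the mean of probe sets (-0.07) and GUSB after median centring (0.05). The cause of these changes was not tested. With the replicate number as a block, 12 members were higher (26.7%, against 24.2% of all genes) and 24 lower (53.3%, against 32.9%). Same-numbered arrays did not deviate together (r = -0.004 across genes), so the numbers were not read as pairs. With 2 arrays per group an exact permutation test cannot reach the threshold, and signals near the filter level of 32.9 limit TFEB, LAPTM5 and ATP6V1B1.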
